A study of Mus musculus with 24 samples.

Results

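The genes described here are 10 members of the Myc network and the D-type cyclins in mouse colon and colorectal tumours: Myc, Mycn and Mycl, their partner Max, the Max-binding repressors Mxd1, Mxi1 and Mnt, and the cyclins Ccnd1, Ccnd2 and Ccnd3. They were chosen by symbol from 55487 genes listed, each symbol matched 1 gene identifier, and all 10 passed the filter on low counts in every fit. The tissues came from C57BL/6 mice that lack Axin1 in intestinal epithelial cells (KO) and from wild-type mice (WT). Axin1 holds together the protein complex through which beta-catenin, the effector of Wnt signals, is sent for degradation. The 8 groups held 3 libraries each: untreated KO and WT colon from mice given water, KO and WT colon from mice given dextran sulfate sodium (DSS) and killed at day 7 or at day 13, and KO and WT colorectal tumours from mice given azoxymethane (AOM) and DSS. DSS is a polymer that injures the colonic epithelium and causes colitis, and AOM is a carcinogen. The labels name no Cre driver, age or sex, and colon beside the tumours was not analysed here. The study asks how loss of epithelial Axin1 bears on colitis and on tumour formation.

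Myc proteins bind DNA as pairs with Max, mostly at the E-box CACGTG, and raise transcription of genes for ribosome production, metabolism and growth. Mxd1, Mxi1 and Mnt compete for Max and for the same sites and repress transcription, and Mxd1 is known from differentiated cells. The D-type cyclins activate the kinases Cdk4 and Cdk6, which phosphorylate the retinoblastoma protein and let cells leave the G1 phase. In intestinal epithelium Myc and Ccnd1 are textbook targets of beta-catenin and TCF, and Myc is active in the proliferating cells of the crypt base.

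E-box sequences were taken from the RefSeq promoter table (GRCm38.p6), which gives 250 bases before and 50 bases after each annotated start and held 7 of the 10 members in 10 promoters: Mycn, Mycl, Max, Mxd1, Mxi1, Mnt and Ccnd3. The motif CACGTG, which reads the same on both strands, was found in 2 of these 10 promoters (20%), those of Mnt and Max, against 7.15% of the 32851 promoters in the table. It was in 10 of 27 promoters of the Myc target genes of metabolism and growth (37.0%), and in 3 of 9 of the other network genes (33.3%). It was in 3 of 13 of the partners and inhibitors of D-type cyclins (23.1%), in 2 of 14 of the nucleolar Myc targets (14.3%), in 1 of 12 of the genes of Myc turnover and cofactors (8.33%) and in 0 of 6 of the genes of cyclin D turnover. The sequences below are shown because they hold the letters that Myc and Max are known to bind, in a repressor of the network (Mnt), in the kinase partner of the D-type cyclins (Cdk4) and in 2 translation factors whose RNA rose at day 7 and in tumours of both genotypes (Eif4e and Eif4a1). Each is written 5′ to 3′ on the strand of the gene with the E-box in capitals.
Mnt, chr11:74830779-74830828, plus strand: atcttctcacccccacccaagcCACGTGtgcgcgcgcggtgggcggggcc
Cdk4, chr10:127063341-127063390, plus strand: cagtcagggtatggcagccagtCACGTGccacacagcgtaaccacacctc
Cdk4, chr10:127063395-127063444, plus strand: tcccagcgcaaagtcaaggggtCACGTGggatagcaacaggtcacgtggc
Eif4e, chr3:138527182-138527231, plus strand: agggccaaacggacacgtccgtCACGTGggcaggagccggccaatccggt
Eif4a1, chr11:69672585-69672634, minus strand: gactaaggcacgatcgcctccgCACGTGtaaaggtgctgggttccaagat
The Mnt E-box began 123 bases before the annotated start and the Eif4e one shown 64 bases before it, with another match at 228 bases. Cdk4 held 4 matches, of which those shown began 172 and 118 bases before its start, and the lower-case end of the Cdk4 window at 118 bases runs into the next match at 98 bases. The letters CTTTGAT, a TCF and LEF core searched on both strands, were in none of the 10 promoters of the members and in 3.73% of all promoters. The promoters of Myc, Ccnd1 and Ccnd2 were not in the table and so were not searched. Among the other listed genes the letters were in the promoter of Cdk4, 52 bases before its start. They were also in that of Ambra1, a gene of cyclin D turnover, from 1 base before its start. These are matches of letters in a short window, not measured binding sites.

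Library totals ran from 15.65 M to 28.07 M expected counts (median 23.64 M). Axin1 checked the labels: it averaged 17.5 ± 1.94 CPM in untreated KO colon against 52.8 ± 2.93 CPM in untreated WT colon (SD, n = 3 each). KO levels were 33.2%, 32.2%, 29.8% and 33.1% of WT in untreated colon, at day 7, at day 13 and in tumours, with no overlap of libraries and an exact two-sided permutation p of 0.1 each, the smallest that 3 against 3 libraries allow. CPM is a gene's count scaled by the library's total, with TMM factors computed over all 24 libraries. All 8 epithelial markers were detected in every library, with summed levels of 10632 to 18158 CPM in colon and 4928 to 11701 CPM in tumours. The 6 smooth muscle markers summed to 118 to 264 CPM in tumours and to 2052 to 11201 CPM in colon. In bulk samples fewer cells of a type and less RNA per cell cannot be told apart. A set of 5 libraries stood apart by marker sums. The 6 markers of squamous epithelium, such as Krt5 and Krt14, reached 3940 CPM in WT day 13 replicate 3, 1056 CPM in KO day 13 replicate 1 and 536 CPM in KO tumour replicate 2. WT day 7 replicate 2 had the highest smooth muscle sum, 11201 CPM, and untreated KO replicate 3 had a proliferation sum of 516 CPM beside 177 and 208 CPM in the other untreated KO libraries. Each fold change of a member between groups was recomputed without these 5 libraries. The ratios, cyclin shares, counts of the other gene lists and pattern ranking below were not. Y-linked genes were on in all 3 untreated KO and in 2 untreated WT libraries, in 1 KO day 7 and no WT day 7 library, in no KO day 13 and all WT day 13 libraries, and in 2 tumours of each genotype. Untreated and day 13 KO colon thus differed fully in Y-linked expression, as did day 7 and day 13 WT colon. These steps and Y-linked expression cannot be told apart. The untreated and day 7 groups of each genotype differed in it in part.

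Compared per length, in TPM (RSEM's transcript level, scaled for length and depth), Mxd1 was the most abundant member over the 24 libraries with a median of 227.3 TPM, ahead of Max at 162.8 TPM. Medians of 79.5 TPM for Ccnd2, 51.6 TPM for Mxi1, 45.4 TPM for Ccnd3 and 43.4 TPM for Ccnd1 followed. Myc had 24.7 TPM, Mycl 11 TPM, Mnt 10.2 TPM and Mycn 1.40 TPM. These medians are over all groups, 18 of the 24 libraries being colon, and the order differed in tumours. Ccnd1 and Ccnd2 averaged 123.0 ± 10.4 and 110.7 ± 38.2 TPM in KO tumours and 148.8 ± 52.3 and 128.4 ± 62.2 TPM in WT tumours (SD, n = 3 each). Beside them Max averaged 90.9 ± 9.65 and Mxd1 79.1 ± 36.4 TPM in KO tumours, and Max 103.7 ± 8.76 and Mxd1 122.3 ± 54.5 TPM in WT tumours, with Myc at 76.0 ± 21.9 TPM in KO tumours and 84.5 ± 21.0 TPM in WT tumours. Apart from Ccnd1 over Max and Myc in KO, these means differed by less than their SDs span.

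**Figure D1:**
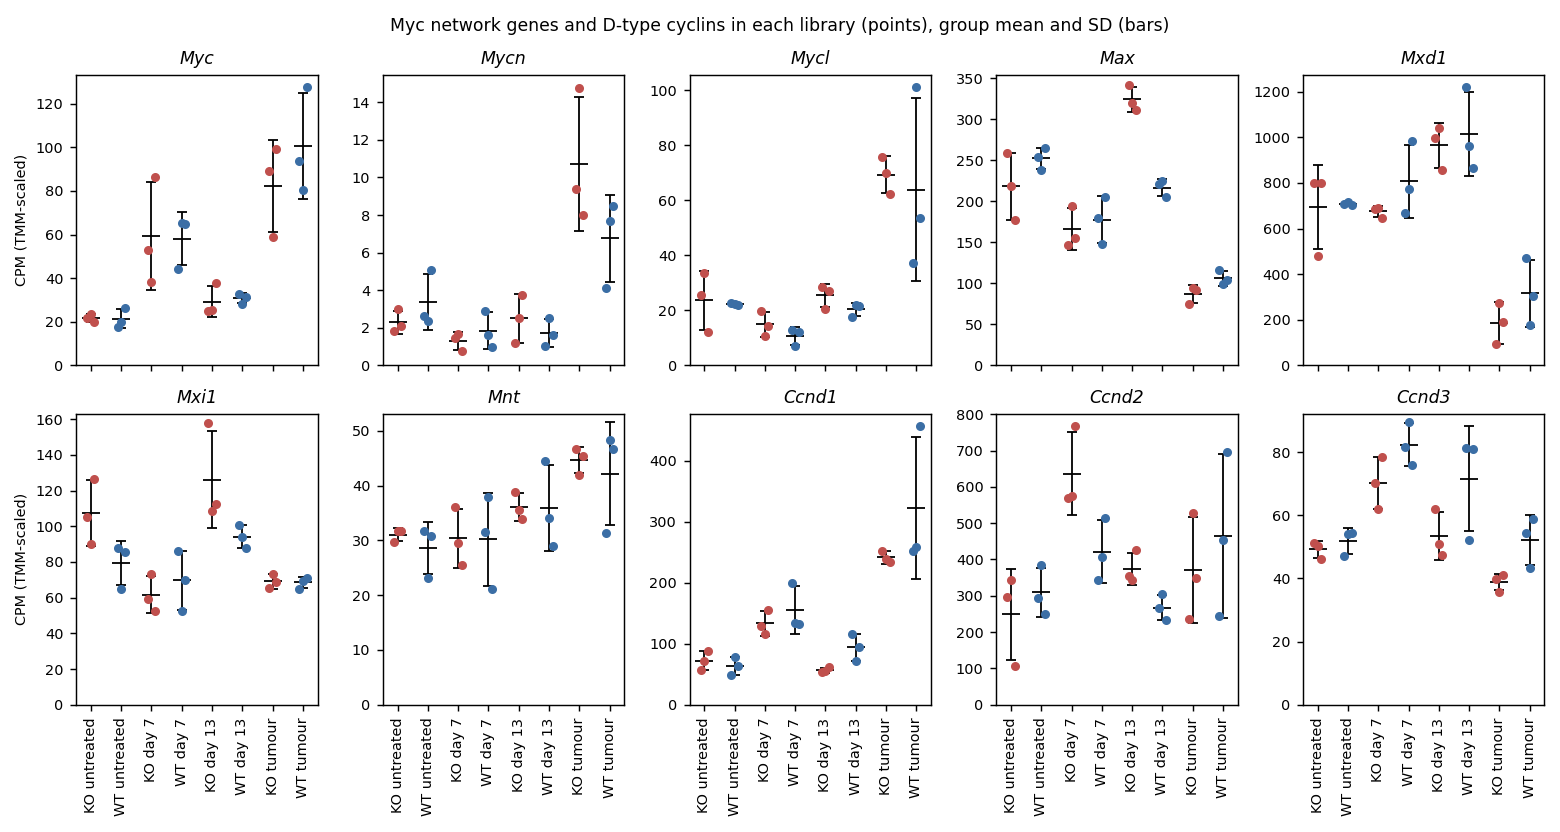
Level of each gene in CPM (vertical axis, TMM-scaled) in every library of the 8 groups (horizontal axis; red points KO, blue points WT; black bars group mean and SD, n = 3). Myc, Mycl, Mycn and Ccnd1 have their highest group means in tumours, Max and Mxd1 their lowest, and Ccnd2 its highest in KO colon at day 7.

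Myc (chromosome 15, 61985391 to 61990374, GRCm38) was higher at day 7 of DSS and in tumours than in untreated colon, in both genotypes. At day 7 it had 53, 38 and 86.4 CPM in KO colon and 44.2, 65.5 and 64.6 CPM in WT colon. At day 13 it had 25.0, 25.3 and 37.6 CPM in KO colon and 32.9, 28.3 and 31.4 CPM in WT colon. Tumours had 89.1, 58.8 and 99.3 CPM in KO and 93.6, 80.7 and 127.9 CPM in WT, and untreated colon had 21.9, 23.5 and 19.7 CPM in KO and 17.8, 20.1 and 26.5 CPM in WT. All day 7 and all tumour libraries lay above all untreated libraries, and the genotypes overlapped in every condition.

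Against untreated colon, Myc rose at day 7 by a log2 fold change of 1.48 ± 0.26 in KO (adjusted p = 0.00225) and 1.43 ± 0.26 in WT (adjusted p = 0.0034). These and all later adjusted p-values of a gene are from edgeR's quasi-likelihood test with Benjamini-Hochberg adjustment over all genes of the fit, unless another tool is named, and ± is the standard error of the fold change. In tumours the log2 fold change over untreated colon was 1.99 ± 0.28 in KO (adjusted p = 2.08e-05) and 2.30 ± 0.28 in WT (adjusted p = 5.04e-06). At day 13 Myc was lower than at day 7 in KO, with a log2 fold change of -1.05 ± 0.26 (adjusted p = 0.015). That call was lost without the 5 libraries that stood apart (-0.95 ± 0.32, adjusted p = 0.0751) and without any 1 of KO day 13 replicates 1 and 2 and KO day 7 replicate 3 (adjusted p of 0.0708, 0.0718 and 0.0971). In WT the same step was -0.91 ± 0.26 (adjusted p = 0.12). Tumours over day 7 gave 0.51 ± 0.27 in KO (adjusted p = 0.134), called without KO day 7 replicate 3 (0.89, adjusted p = 0.0154), and 0.81 ± 0.27 in WT (adjusted p = 0.0277). The WT call was lost without WT tumour replicate 3 (adjusted p = 0.144), WT day 7 replicate 1 (adjusted p = 0.114) or WT day 7 replicate 3 (adjusted p = 0.0511).

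Mycn (chromosome 12, 12936093 to 12941914), a family member best known from embryonic and neural tissue, was the scarcest member. KO tumours had 9.38, 14.8 and 8.01 CPM and WT tumours 4.13, 7.69 and 8.47 CPM, whereas the 18 colon libraries ran from 0.772 to 5.10 CPM. Each KO tumour lay above every colon library, and 1 WT tumour lay below the highest untreated WT library. Mycn was higher in KO tumours than in untreated KO colon by 2.28 ± 0.48 on the log2 scale (adjusted p = 0.000765) and than in KO colon at day 7 by 3.08 ± 0.50 (adjusted p = 0.000112). In WT the tumour difference from untreated colon was 1.07 ± 0.46 (adjusted p = 0.0632), called without untreated WT replicate 3 (1.49, adjusted p = 0.029) or WT tumour replicate 1 (1.33, adjusted p = 0.0336), and the difference from day 7 was 1.88 ± 0.48 (adjusted p = 0.00565). The difference between the genotypes in the tumour step over untreated colon was 1.20 ± 0.65 (adjusted p = 0.632), so the steps were not shown to differ.

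Mycl (chromosome 4, 122995652 to 123002485), the third Myc gene, was also highest in tumours. KO tumours had 75.6, 70.0 and 62.4 CPM and WT tumours 37.3, 101.0 and 53.4 CPM, against 25.4, 33.4 and 12.1 CPM in untreated KO colon and 22.8, 22.1 and 22 CPM in untreated WT colon. The tumour and colon libraries did not overlap. Over untreated colon the log2 fold change was 1.62 ± 0.34 in KO (adjusted p = 0.00074) and 1.58 ± 0.34 in WT (adjusted p = 0.000892).
At day 7 Mycl had 19.8, 10.8 and 14.4 CPM in KO colon and 12.8, 6.99 and 12.1 CPM in WT colon, and it fell, with a log2 fold change of -1.08 ± 0.31 in WT (adjusted p = 0.029). The WT call was lost without WT day 7 replicate 2 (adjusted p = 0.098) or any 1 untreated WT library (adjusted p of 0.0633 to 0.0801). It was also lost with Y-linked expression as a covariate (adjusted p = 0.174). The KO difference was -0.62 ± 0.31 (adjusted p = 0.21), and was called without the 5 libraries that stood apart (-0.93 ± 0.22, adjusted p = 0.0115) and without untreated KO replicate 3 alone (-0.93, adjusted p = 0.0308).

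Max (chromosome 12, 76937269 to 76962201), the partner that Myc proteins and the repressors share, was lower in tumours in both genotypes. KO tumours had 74.3, 94.8 and 91.7 CPM and WT tumours 115.8, 98.6 and 103.9 CPM, against 259.1, 218.3 and 177.2 CPM in untreated KO colon and 254.6, 238.6 and 264.4 CPM in untreated WT colon. All 6 tumours lay below all 18 colon libraries. The fall from untreated colon was -1.27 ± 0.14 in KO (adjusted p = 2.06e-06) and -1.18 ± 0.14 in WT (adjusted p = 2.82e-06).
At day 7 Max had 146.9, 194.8 and 155.5 CPM in KO colon and 179.9, 147.7 and 205.3 CPM in WT colon. The difference from untreated colon was -0.37 ± 0.14 in KO (adjusted p = 0.108), called without untreated KO replicate 3 (-0.49, adjusted p = 0.0498). In WT it was -0.52 ± 0.14 (adjusted p = 0.0244). The WT call was lost without any 1 of WT day 7 replicates 1 and 2 and untreated WT replicates 1 and 3 (adjusted p of 0.0508 to 0.082). It was also lost with no filter on low counts (adjusted p = 0.0639) and with Y-linked expression as a covariate (adjusted p = 0.0518). At day 13 Max had 341.2, 320.4 and 310.9 CPM in KO colon and 220.9, 224.8 and 204.8 CPM in WT colon. The KO day 13 libraries were the highest of the 24, and Max was higher there than in KO colon at day 7 by 0.93 ± 0.14 (adjusted p = 0.000593), against 0.30 ± 0.14 for the same step in WT (adjusted p = 0.3). The difference between these steps was 0.64 ± 0.20 (adjusted p = 0.247). Max overlaps Gm47218 and Mxd1 overlaps Gm44292, each on the same strand, and reads of the overlaps cannot be told apart.

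Mxd1 (chromosome 6, 86647042 to 86669161), a repressor known from differentiated epithelium, was lower in tumours. KO tumours had 92.9, 273.1 and 190.7 CPM and WT tumours 469.2, 175.6 and 302.4 CPM, against 798.4, 480.7 and 801.5 CPM in untreated KO colon and 708.0, 716.0 and 703.5 CPM in untreated WT colon. Every tumour lay below every colon library, although WT tumour replicate 1 was close to the lowest of them, at 480.7 CPM. Over untreated colon the log2 fold change was -1.84 ± 0.33 in KO (adjusted p = 0.000199) and -1.10 ± 0.33 in WT (adjusted p = 0.00936), where the call was lost without WT tumour replicate 2 (-0.81, adjusted p = 0.0535). The summed level of the 8 epithelial markers was also lower in most tumours (4928 to 9460 CPM in KO and 7404 to 11701 CPM in WT, against 14005 to 16844 CPM in untreated KO and 11425 to 14250 CPM in untreated WT colon), and its part in the result was not tested. No day 7 or day 13 difference of Mxd1 from untreated colon passed the test in either genotype (log2 fold changes of -0.01 to 0.52).

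Mxi1 (chromosome 19, 53310518 to 53375810), another repressor of the Mxd family, changed in KO colon. It had 59.4, 73.2 and 52.6 CPM in KO colon at day 7 and 157.6, 108.5 and 112.3 CPM at day 13, with 105.3, 89.9 and 126.6 CPM in untreated KO colon. The day 7 libraries lay below all libraries of the other KO colon groups. Mxi1 was lower at day 7, with a log2 fold change of -0.77 ± 0.19 (adjusted p = 0.018), a call lost without KO day 7 replicate 1 or 3 or untreated KO replicate 3 (adjusted p of 0.0677 to 0.0893), and higher at day 13 than at day 7 by 1.0 ± 0.20 (adjusted p = 0.00346). The call of day 7 against untreated colon was also lost with Y-linked expression as a covariate (adjusted p = 0.055). WT colon had 86.0, 52.8 and 70.1 CPM at day 7 and 100.5, 94.2 and 87.6 CPM at day 13, with 87.7, 65.0 and 85.3 CPM untreated, and no WT step passed. The difference between the genotypes was -0.57 ± 0.27 in the step to day 7 (adjusted p = 0.371) and 0.55 ± 0.27 in the step from day 7 to day 13 (adjusted p = 0.451). KO tumours had 65.4, 73.4 and 68.7 CPM and WT tumours 65.1, 69.1 and 71.3 CPM. The tumour difference from untreated colon was -0.57 ± 0.18 in KO (adjusted p = 0.0108; without untreated KO replicate 3, adjusted p = 0.0675) and -0.14 ± 0.17 in WT (adjusted p = 0.522). Mxi1 overlaps AC133451.2 and Gm10197 on the other strand, and since the strand setting is not given, reads of the overlaps cannot be told apart.

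Mnt (chromosome 11, 74830920 to 74845725), a repressor expressed in dividing and resting cells alike, had the smallest spread of group means among the 9 members with at least 5 CPM (a root-mean-square size of 0.223 on the log2 scale). KO tumours had 46.6, 42.0 and 45.3 CPM and WT tumours 31.4, 48.4 and 46.8 CPM, against 29.6, 31.8 and 31.8 CPM in untreated KO colon and 31.7, 23.1 and 30.9 CPM in untreated WT colon. The genotypes overlapped, and WT tumour replicate 1 lay among the untreated WT libraries. Mnt was higher in tumours by 0.58 ± 0.21 in KO (adjusted p = 0.0261) and by 0.63 ± 0.21 in WT (adjusted p = 0.0176). With single libraries left out the fold change ran from 0.55 to 0.63 in KO and from 0.50 to 0.80 in WT, but neither call held throughout. The KO call was lost without untreated KO replicate 1 or 2 or KO tumour replicate 1 or 3 (adjusted p of 0.0543 to 0.0775). It was also lost with no filter (adjusted p = 0.0572). The WT one was lost without untreated WT replicate 2 or WT tumour replicate 2 or 3 (adjusted p of 0.0675 to 0.089) and with only the groups compared in the fit (adjusted p = 0.0691).

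Ccnd1 (chromosome 7, 144929931 to 144939925), which encodes cyclin D1, rose at day 7 and in tumours in both genotypes. At day 7 it had 128.8, 116.3 and 156.0 CPM in KO colon and 200.1, 133.6 and 132.6 CPM in WT colon. Day 13 colon had 54.1, 54.6 and 61.8 CPM in KO and 115.5, 71.0 and 95.4 CPM in WT, tumours 253.0, 238.9 and 233.5 CPM in KO and 251.8, 259.5 and 456.6 CPM in WT, and untreated colon 57.2, 72.0 and 87.7 CPM in KO and 48.9, 77.7 and 63.0 CPM in WT. Tumours lay above every colon library, and day 7 libraries lay above every untreated one.
The rise at day 7 was 0.92 ± 0.22 in KO (adjusted p = 0.0146) and 1.29 ± 0.22 in WT (adjusted p = 0.00247). The KO call was lost without untreated KO replicate 1 or KO day 7 replicate 3 (adjusted p of 0.0693 and 0.0687). It was also lost with Y-linked expression as a covariate (adjusted p = 0.0794). From day 7 to day 13 Ccnd1 fell in KO, with a log2 fold change of -1.27 ± 0.22 (adjusted p = 0.0017), and in WT the difference was -0.71 ± 0.22 (adjusted p = 0.14). Tumours were higher than untreated colon by 1.80 ± 0.25 in KO (adjusted p = 1.7e-05) and 2.42 ± 0.25 in WT (adjusted p = 1.1e-06). They were higher than day 7 colon by 0.89 ± 0.24 in KO (adjusted p = 0.00664) and 1.07 ± 0.24 in WT (adjusted p = 0.00245). The gene overlaps LTO1 on the other strand, and since the strand setting of the counting is not given, reads of the overlap cannot be told apart.

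Ccnd2 (chromosome 6, 127125162 to 127152193), cyclin D2, had its highest group mean in KO colon at day 7. It had 568.7, 573.7 and 767.7 CPM in KO colon and 343.6, 407.7 and 514.2 CPM in WT colon at day 7, against 297.4, 342.7 and 106.8 CPM in untreated KO colon and 295.1, 383.7 and 249.9 CPM in untreated WT colon. Untreated KO replicate 3 was the lowest of the 24 libraries. Ccnd2 rose at day 7 by 1.39 ± 0.31 in KO (adjusted p = 0.00982), and by single libraries left out this ran from 1.03 to 1.68. In WT the difference was 0.44 ± 0.31 (adjusted p = 0.34), and the difference between the genotypes' steps was 0.95 ± 0.44 (adjusted p = 0.359).
KO tumours had 236.7, 527.0 and 348.8 CPM and WT tumours 244.8, 453.3 and 696.8 CPM. They were spread across the range of colon, and the tumour difference from untreated colon was 0.64 ± 0.37 in KO (adjusted p = 0.163) and 0.65 ± 0.37 in WT (adjusted p = 0.156). Without the 5 libraries that stood apart the KO value turned to -0.06. Against KO colon at day 7, KO tumours differed with a log2 fold change of -0.75 ± 0.37 (adjusted p = 0.115), called without KO tumour replicate 2 (-1.09, adjusted p = 0.0441). Antisense genes 9330179D12Rik and Gm43126 overlap Ccnd2, and reads of the overlaps cannot be told apart.

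Ccnd3 (chromosome 17, 47505051 to 47599691), cyclin D3, rose at day 7 and was lower in tumours than at day 7. It had 70.2, 62.1 and 78.4 CPM in KO colon and 81.7, 89.4 and 75.9 CPM in WT colon at day 7, and 39.9, 35.9 and 41.0 CPM in KO tumours and 54.6, 43.2 and 58.7 CPM in WT tumours. Untreated colon had 51.3, 50.4 and 46.3 CPM in KO and 47.2, 54.0 and 54.5 CPM in WT. KO tumours lay below all other libraries.
The rise at day 7 was 0.54 ± 0.16 in KO (adjusted p = 0.0428) and 0.66 ± 0.16 in WT (adjusted p = 0.015). The KO call was lost without the 5 libraries that stood apart (0.50 ± 0.17, adjusted p = 0.0564). It was also lost without any 1 of untreated KO replicates 1, 2 and 3 and KO day 7 replicates 1 and 3 (adjusted p of 0.0838 to 0.163), with no filter on low counts (adjusted p = 0.0728) and with Y-linked expression as a covariate (adjusted p = 0.173). The WT call was lost without untreated WT replicate 1 (adjusted p = 0.0726), without WT day 7 replicate 2 (adjusted p = 0.0501) and with the Y-linked covariate (adjusted p = 0.0957). Tumours were lower than day 7 colon, with a log2 fold change of -0.82 ± 0.16 in KO (adjusted p = 0.000632) and -0.65 ± 0.16 in WT (adjusted p = 0.00493). Over untreated colon the tumour difference was -0.28 ± 0.16 in KO (adjusted p = 0.159) and 0.07 ± 0.16 in WT (adjusted p = 0.727). Ccnd3 overlaps Bysl, a gene of ribosome assembly on the other strand, and reads of the overlap cannot be told apart.

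**Figure D2:**
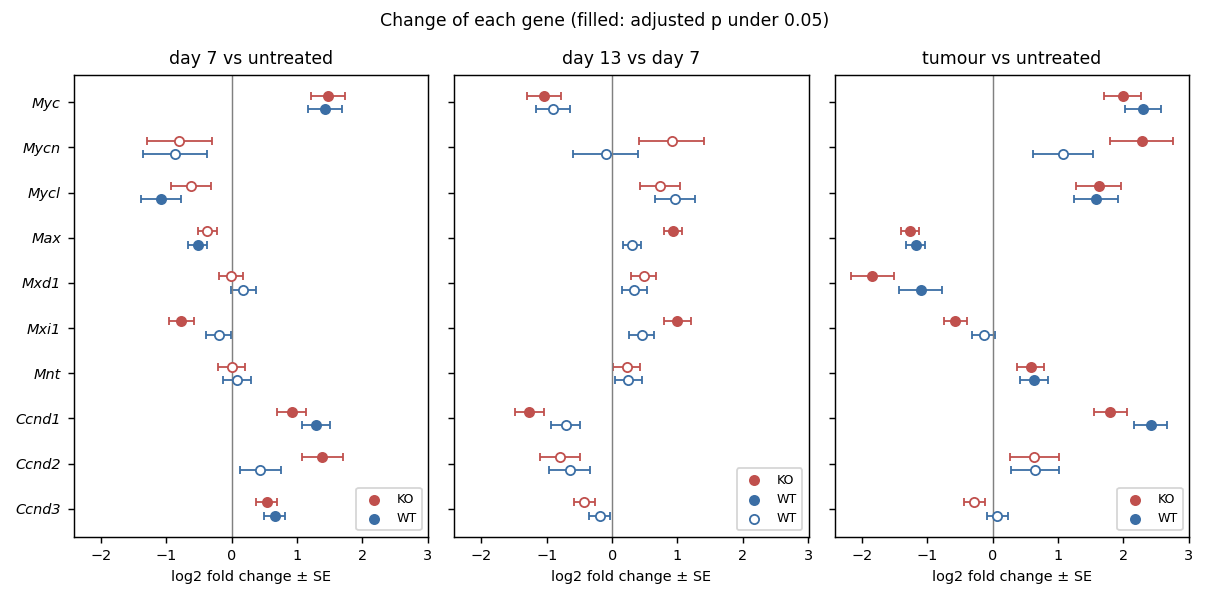
Log2 fold change with its SE (horizontal axis) of each gene (rows) for day 7 over untreated, day 13 over day 7 and tumour over untreated, in KO (red, upper) and WT (blue, lower); filled points have an adjusted p under 0.05. Myc and Ccnd1 lie to the right at day 7 and in tumours in both genotypes, and Max and Mxd1 lie to the left in tumours.

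As counts, 5 of 10 members were called at day 7 against untreated KO colon (Myc, Ccnd1, Ccnd2 and Ccnd3 higher, Mxi1 lower), where 12.6% of all 18102 genes tested were called (8.57% higher, 4.07% lower). In WT 5 of 10 were called (Myc, Ccnd1 and Ccnd3 higher, Max and Mycl lower) with 16.3% of all genes (8.52% higher, 7.77% lower). With Y-linked expression as a covariate 2 members were called in each genotype, Myc and Ccnd2 in KO and Myc and Ccnd1 in WT. The share of all genes called with that covariate is not given here, so the smaller counts are not a result about the members. The summed level of 7 proliferation markers was 724 to 1125 CPM in KO and 348 to 766 CPM in WT at day 7, against 177 to 516 CPM in untreated KO and 312 to 512 CPM in untreated WT colon. Myeloid markers summed to 46.7 to 59.1 CPM in KO and 126 to 310 CPM in WT at day 7. Untreated colon had 59.3 to 81.2 CPM of them in KO and 70.2 to 80.4 CPM in WT. Fibroblast markers summed to 551 to 869 CPM in KO and 916 to 2631 CPM in WT at day 7. In untreated colon they summed to 661 to 865 CPM in KO and 865 to 1397 CPM in WT. The part of these sums in the members' changes was not tested.
Day 13 colon had 0 of 10 members called against untreated colon in KO (0.0276% of all genes) and 0 in WT (4.24%). At an unadjusted p below 0.05 there were 2 in KO (7.62% of all genes) and 3 in WT (22.4%). Tested with DESeq2, 1 was called in each (Max in KO at adjusted p = 0.0309, Ccnd3 in WT at adjusted p = 0.0473). From day 7 to day 13, 4 of 10 members were called in KO (Max and Mxi1 higher, Myc and Ccnd1 lower), with 12.8% of all genes (4.22% higher, 8.61% lower). In WT 0 were called by edgeR, with 0.0608% of all genes, and 1 by DESeq2 (Myc, adjusted p = 0.0336). At an unadjusted p below 0.05 there were 4 in WT, with 16.9% of all genes. None of the 10 members differed between the genotypes in these steps at the adjusted threshold (0% of all genes in either test of the difference by edgeR), and DESeq2 called 0 members. At an unadjusted p below 0.05 there was 1 member in each test, with 13.7% of all genes in the step to day 7 (Ccnd2) and 11.7% in the step from day 7 to day 13 (Max).
Tumours had 8 of 10 members called against untreated colon in KO (5 higher, 3 lower), where 49.9% of 19056 genes were called (26.4% higher, 23.5% lower), and 6 of 10 in WT (4 higher, 2 lower), with 48.8% of all genes (27.6% higher, 21.2% lower). Against colon at day 7 there were 7 of 10 in KO (Mycn, Mycl, Ccnd1 and Mnt higher, Max, Mxd1 and Ccnd3 lower; 42.7% of all genes, 21.9% higher and 20.8% lower) and 7 of 10 in WT (Myc, Mycn, Mycl and Ccnd1 higher, Max, Mxd1 and Ccnd3 lower; 34.4% of all genes, 16.9% higher and 17.5% lower). With only the compared groups in the fit, 3 of the 7 in WT were called (Max, Mycl and Ccnd3), and the calls of Myc, Mycn, Mxd1 and Ccnd1 were lost (adjusted p of 0.0791, 0.0605, 0.0575 and 0.0763). The KO call of Mnt was lost without any 1 of KO day 7 replicates 2 and 3 and KO tumour replicates 1 and 3 (adjusted p of 0.0633 to 0.119). Proliferation markers summed to 876 to 1030 CPM in KO tumours and 743 to 746 CPM in WT tumours. Fibroblast markers summed to 1339 to 1805 CPM in KO and 1254 to 1996 CPM in WT tumours, against 661 to 865 CPM in untreated KO and 865 to 1397 CPM in untreated WT colon. Myeloid markers summed to 233 to 366 CPM in KO and 327 to 435 CPM in WT tumours, against 59.3 to 81.2 CPM in untreated KO and 70.2 to 80.4 CPM in untreated WT colon. The part of these cells in the tumour differences was not tested. The tumour comparisons of a genotype share its tumour libraries.

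The balance between Myc RNA and that of the competitors Mxd1, Mxi1 and Mnt differed with condition. The related Mxd3 and Mxd4 were not counted, and Mxd4 averaged 41.2 ± 1.39 TPM in untreated KO and 48.6 ± 7.73 TPM in untreated WT colon. The ratio of Myc to the summed Mxd1, Mxi1 and Mnt, all in TPM, was taken in each library. It was 0.759, 0.275 and 0.591 in KO tumours and 0.320, 0.502 and 0.583 in WT tumours, against 0.0466, 0.0803 and 0.0412 in untreated KO colon and 0.0459, 0.0518 and 0.0706 in untreated WT colon. At day 7 it was 0.141, 0.0936 and 0.251 in KO and 0.116, 0.154 and 0.123 in WT, and at day 13 it averaged 0.0531 ± 0.0175 in KO and 0.0568 ± 0.00623 in WT (SD, n = 3 each). Tumour ratios thus lay above all colon ratios, and day 7 ratios lay above those of untreated and day 13 colon. Mxd1 made up 50.6% ± 13.3 of the repressor TPM in KO tumours and 63.2% ± 12.9 in WT tumours, against 75.1% ± 3.44 in untreated KO and 80.4% ± 2.58 in untreated WT colon. The 3 Myc genes together had 1.38 ± 0.383 times the TPM of Max in KO tumours and 1.20 ± 0.295 times in WT tumours, against 0.154 ± 0.0394 in untreated KO and 0.127 ± 0.0109 in untreated WT colon. Levels of RNA do not give the amounts of protein.
The makeup of the D-type cyclins differed as well. Ccnd1 was 52.9%, 38.8% and 44.7% of the summed TPM of the 3 cyclins in KO tumours and 49.6%, 41.6% and 45.9% in WT tumours, against 16.2%, 18.5% and 34.5% in untreated KO colon and 15.5%, 17.9% and 18.5% in untreated WT colon. The tumour shares lay above all colon shares. Ccnd2 held 58.7% ± 1.79 in KO colon and 44.5% ± 8.23 in WT colon at day 7. In untreated colon it held 44.9% ± 16.2 in KO and 51.9% ± 4.86 in WT. Untreated KO replicate 3 had 26.1%, beside 53.1% and 55.3% in replicates 1 and 2. At day 13 the Ccnd2 share averaged 57.2% ± 4.36 in KO and 40.6% ± 8.82 in WT. Ccnd3 held 14.6% ± 2.73 in KO tumours and 16.4% ± 4.80 in WT tumours, against 32.1% ± 6.73 in untreated KO and 30.8% ± 4.01 in untreated WT colon.

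**Figure D3:**
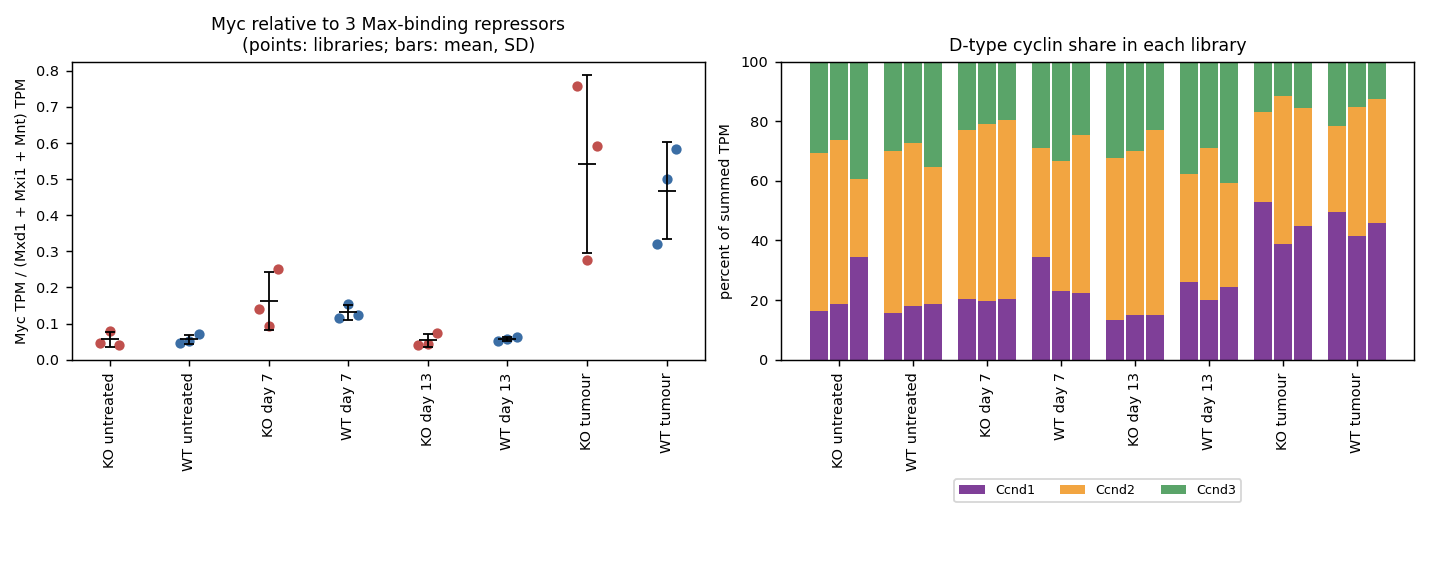
Left, Myc TPM divided by the summed TPM of Mxd1, Mxi1 and Mnt in each library (points; red KO, blue WT; bars mean and SD, n = 3) by group. Right, percent of the summed TPM of Ccnd1, Ccnd2 and Ccnd3 in each library (stacked bars, replicates 1 to 3 in each group). Tumours have the highest Myc ratios, up to 0.759 in KO and 0.583 in WT, and the largest Ccnd1 shares.

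Genes known as Myc targets changed in the same comparisons. Of 15 nucleolar targets, which serve ribosome production, all 15 were higher at day 7 in KO colon (median log2 fold change 1.08, all genes tested -0.04, with 8.57% of them higher) and 13 in WT colon (median 0.90, all genes 0.03, with 8.52% higher). In KO they included Nop56 (1.59 ± 0.17, adjusted p = 0.000126), a core protein of small nucleolar RNA particles, Gnl3 (1.43 ± 0.17, adjusted p = 0.000163), the GTPase nucleostemin, and Ncl (0.99 ± 0.12, adjusted p = 0.000233), nucleolin. From day 7 to day 13 all 15 fell in KO (median -1.06, all genes 0.02), where 8.61% of all genes were lower, and 0 were called in WT (median -0.50, all genes 0.02), where 0.0608% of all genes were called. The difference between the genotypes in that step had a median of -0.67 with 0 of 15 called. In tumours all 15 were higher than in untreated colon in KO (median 0.99, all genes 0.04, with 26.4% higher) and in WT (median 1.28, all genes 0.09, with 27.6% higher), among them Mybbp1a (1.47 ± 0.17 in KO, adjusted p = 2.99e-06, and 1.56 ± 0.17 in WT, adjusted p = 1.39e-06), a nucleolar protein that binds the Myb oncoprotein. Against day 7 colon 1 of 15 was higher in KO tumours (21.9% of all genes) and 4 in WT tumours (16.9%).
Of 18 targets of metabolism and growth, 13 were higher at day 7 in KO (median 0.90, all genes -0.04, with 8.57% higher) and 11 in WT (median 0.65, all genes 0.03, with 8.52% higher), with 0 lower. Srm, spermidine synthase, rose by 1.49 ± 0.24 in KO (adjusted p = 0.000993) and 1.68 ± 0.24 in WT (adjusted p = 0.00103), and Eif4a1, a translation initiation helicase whose E-box is printed above, by 0.71 ± 0.10 in KO (adjusted p = 0.000516) and 0.50 ± 0.10 in WT (adjusted p = 0.00534). From day 7 to day 13, 12 of 18 fell in KO (median -0.82, 8.61% of all genes lower). In WT 0 were called (median -0.34), where 0.0608% of all genes were called, and the difference between the genotypes in that step had a median of -0.51 with 0 of 18 called. In tumours 12 of 18 were higher and 1 lower than in untreated colon in KO (median 0.88, 26.4% of all genes higher and 23.5% lower), and 13 were higher in WT (median 1.04, 27.6% of all genes higher). Shmt2, the mitochondrial serine hydroxymethyltransferase, rose by 1.66 ± 0.22 in KO tumours (adjusted p = 9.47e-06) and 1.74 ± 0.22 in WT tumours (adjusted p = 5.35e-06). Eif4e, the cap-binding translation factor, rose by 0.73 ± 0.11 in KO tumours (adjusted p = 2.93e-05) and 0.98 ± 0.11 in WT tumours (adjusted p = 1.7e-06). The member that was lower in KO tumours was Ldha, lactate dehydrogenase A, at -0.79 ± 0.22 (adjusted p = 0.00733), against -0.37 ± 0.22 in WT tumours (adjusted p = 0.18). Against day 7 colon 3 of 18 were higher and 5 lower in KO tumours (median -0.12, 21.9% of all genes higher and 20.8% lower). In WT tumours 7 were higher and 1 lower than at day 7 (median 0.24, 16.9% of all genes higher and 17.5% lower).

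Among 7 other genes of the Myc, Max and Mlx network, Mxd4, a repressor related to Mxd1, fell at day 7, with a log2 fold change of -0.86 ± 0.16 in KO (adjusted p = 0.00257) and -0.87 ± 0.16 in WT (adjusted p = 0.00313). In all 2 of 7 fell in KO (4.07% of all genes lower) and 3 in WT (7.77%), with 0 higher. In tumours 2 of 7 were higher and 3 lower in each genotype. Of all genes 26.4% were higher and 23.5% lower in KO, and 27.6% higher and 21.2% lower in WT. The count of higher ones was thus near the background. The higher ones were Mxd3, a family member known from dividing cells (2.41 ± 0.52 in KO, adjusted p = 0.000985, and 1.40 ± 0.51 in WT, adjusted p = 0.0283), and Zbtb17, which encodes Miz1, a partner through which Myc represses genes (0.73 ± 0.13 in KO, adjusted p = 0.000134, and 0.43 ± 0.13 in WT, adjusted p = 0.00836). Mlxip, a glucose-sensing partner of Mlx, was lower, with a log2 fold change of -1.13 ± 0.12 in KO (adjusted p = 1.73e-06) and -0.95 ± 0.12 in WT (adjusted p = 6.83e-06).
Of 11 genes of Myc turnover and cofactors, 4 were higher at day 7 in KO (8.57% of all genes) and 3 in WT (8.52%). In tumours 9 were higher and 1 lower in KO (26.4% and 23.5% of all genes) and 5 higher and 1 lower in WT (27.6% and 21.2%). Ruvbl1, a helicase that binds Myc, rose in tumours by 1.34 ± 0.16 in KO (adjusted p = 3.28e-06) and 1.41 ± 0.16 in WT (adjusted p = 1.8e-06). Skp2, part of a ubiquitin ligase of Myc and of the inhibitor Cdkn1b, rose by 1.19 ± 0.20 in KO (adjusted p = 8.55e-05) and 1.48 ± 0.20 in WT (adjusted p = 1.08e-05). Usp28, a deubiquitinase that stabilises Myc, was lower, with a log2 fold change of -1.03 ± 0.22 in KO (adjusted p = 0.000985) and -1.49 ± 0.23 in WT (adjusted p = 3.82e-05).

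Of 12 partners and inhibitors of the D-type cyclins, Cdk4, the kinase they activate, rose in tumours by 1.73 ± 0.18 in KO (adjusted p = 1.3e-06) and 1.66 ± 0.18 in WT (adjusted p = 1.46e-06), and at day 7 it differed by 0.35 ± 0.16 in KO (adjusted p = 0.16) and 0.25 ± 0.16 in WT (adjusted p = 0.284). In tumours 3 of 12 were higher and 5 lower in KO (26.4% and 23.5% of all genes), and 4 higher and 4 lower in WT (27.6% and 21.2%). The counts of higher ones were thus near the background. Rb1, the retinoblastoma protein that Cdk4 phosphorylates, was lower, with a log2 fold change of -1.13 ± 0.16 in KO (adjusted p = 2.17e-05) and -0.93 ± 0.16 in WT (adjusted p = 0.000121). Its relative Rbl2, known from resting cells, was lower in tumours, with a log2 fold change of -0.69 ± 0.11 in KO (adjusted p = 7.58e-05) and -0.75 ± 0.11 in WT (adjusted p = 3.25e-05). At day 7 it was lower with a log2 fold change of -0.61 ± 0.12 in KO (adjusted p = 0.00304) and -0.69 ± 0.12 in WT (adjusted p = 0.00206). These counts of higher genes include Cdkn2a, an inhibitor that passed the count filter only through the tumours, so that its place there was fixed by the filter. It averaged 5.13 ± 1.72 CPM in KO tumours and 11.2 ± 12.5 CPM in WT tumours, against 0.0677 ± 0.0491 CPM in untreated KO and 0.0299 ± 0.0259 CPM in untreated WT colon (SD, n = 3 each). Of 6 genes of cyclin D turnover, 1 was higher and 1 lower in tumours of each genotype, each below the shares of all genes. Ddb1, a ubiquitin ligase adaptor, rose by 0.56 ± 0.10 in KO (adjusted p = 0.000215) and 0.58 ± 0.10 in WT (adjusted p = 0.000161). Fbxo31, a ligase subunit for cyclin D1, fell, with a log2 fold change of -0.58 ± 0.14 in KO (adjusted p = 0.00273) and -0.82 ± 0.14 in WT (adjusted p = 0.000139).

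**Figure D4:**
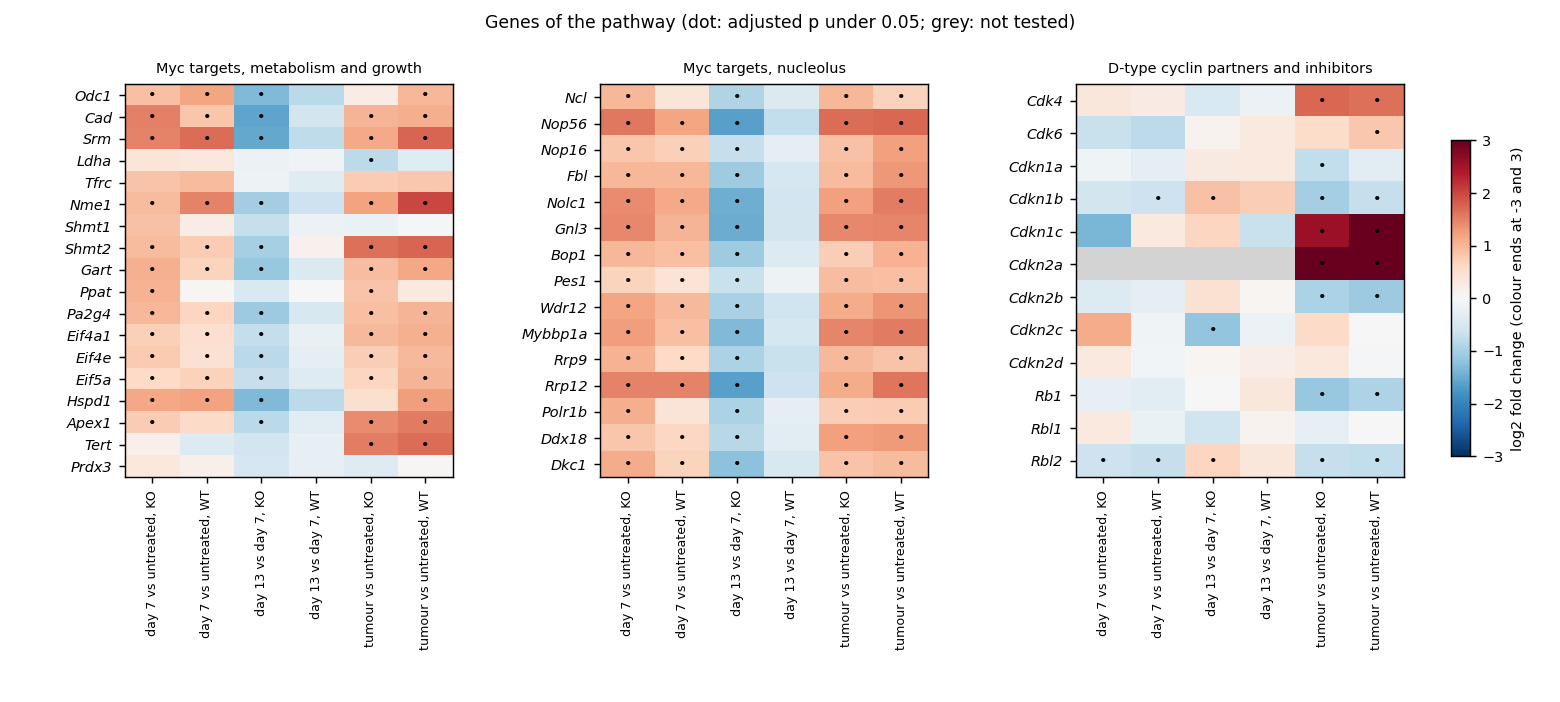
Log2 fold change (colour, red higher and blue lower, ends at -3 and 3) of 2 lists of Myc target genes and of the partners and inhibitors of D-type cyclins (rows) in 6 comparisons (columns); a dot marks an adjusted p under 0.05 and grey a gene not tested. All 15 nucleolar targets are marked as higher at day 7 in KO and in both tumour columns, and as lower from day 7 to day 13 in KO.

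Between the genotypes, 0 of 10 members passed the test in any condition. In untreated colon KO over WT ran from -0.57 ± 0.49 (Mycn) to 0.41 ± 0.19 (Mxi1), with 0.0110% of all genes called, and at an unadjusted p below 0.05 there were 0 members (6.53% of all genes). At day 7 it ran from -0.50 ± 0.51 (Mycn) to 0.61 ± 0.31 (Ccnd2), with 0.00552% of all genes called, and at an unadjusted p below 0.05 there were 0 members (27.0% of all genes). Averaged over the 3 colon conditions it ran from -0.27 ± 0.13 (Ccnd1) to 0.28 ± 0.18 (Mycl), with 4.84% of all genes called and 1 member at an unadjusted p below 0.05 (25.5% of all genes). DESeq2 called 0 members in these 3 comparisons.
At day 13, where 2.51% of all genes were called, 4 of 10 members had no overlap of libraries, which 24.2% of all genes had in either direction. KO libraries lay above WT for Max (0.55 ± 0.14, adjusted p = 0.0558), Ccnd2 (0.45 ± 0.31, adjusted p = 0.477) and Mxi1 (0.39 ± 0.19, adjusted p = 0.302) and below WT for Ccnd1 (-0.76 ± 0.22, adjusted p = 0.0864). At an unadjusted p below 0.05 there were 3 members at day 13 (18.2% of all genes). DESeq2 called 2, Max at an adjusted p of 0.00714 and Ccnd1 at 0.0252. With all 24 libraries in the edgeR fit Max was called (0.54, adjusted p = 0.0341), and without WT day 13 replicate 2 Ccnd1 (-0.94, adjusted p = 0.0239) and Ccnd3 (-0.65, adjusted p = 0.0103) were. Y-linked genes were off in all KO and on in all WT libraries at day 13, so genotype and Y-linked expression cannot be told apart within that day. Squamous markers were high in 1 library of each genotype there, and without the 5 libraries that stood apart Max differed by 0.49 ± 0.14 (adjusted p = 0.128) and Ccnd1 by -0.69 ± 0.28 (adjusted p = 0.256). Myeloid markers at day 13 summed to 40.0 to 60.5 CPM in KO and 111 to 472 CPM in WT. Fibroblast markers summed to 374 to 672 CPM in KO and 969 to 2449 CPM in WT. The epithelial, smooth muscle and proliferation sums of the genotypes overlapped at day 13. The part of these cells in the genotype differences was not tested.
In tumours KO over WT ran from -0.78 ± 0.49 (Mxd1) to 0.66 ± 0.35 (Mycn), with 0% of 17245 genes called by edgeR and 0 members called by DESeq2. At an unadjusted p below 0.05 there was 1 member, with 654 genes in all (3.79%), and 2 members (Max and Ccnd3, both lower in KO) and 9.43% of all genes had no overlap of libraries. The genotype difference in the tumour step over untreated colon had 0 of 10 members and 0 of 19056 genes called by edgeR, and 0 members by DESeq2. At an unadjusted p below 0.05 there were 0 members, with 1652 genes in all (8.67%).

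**Figure D5:**
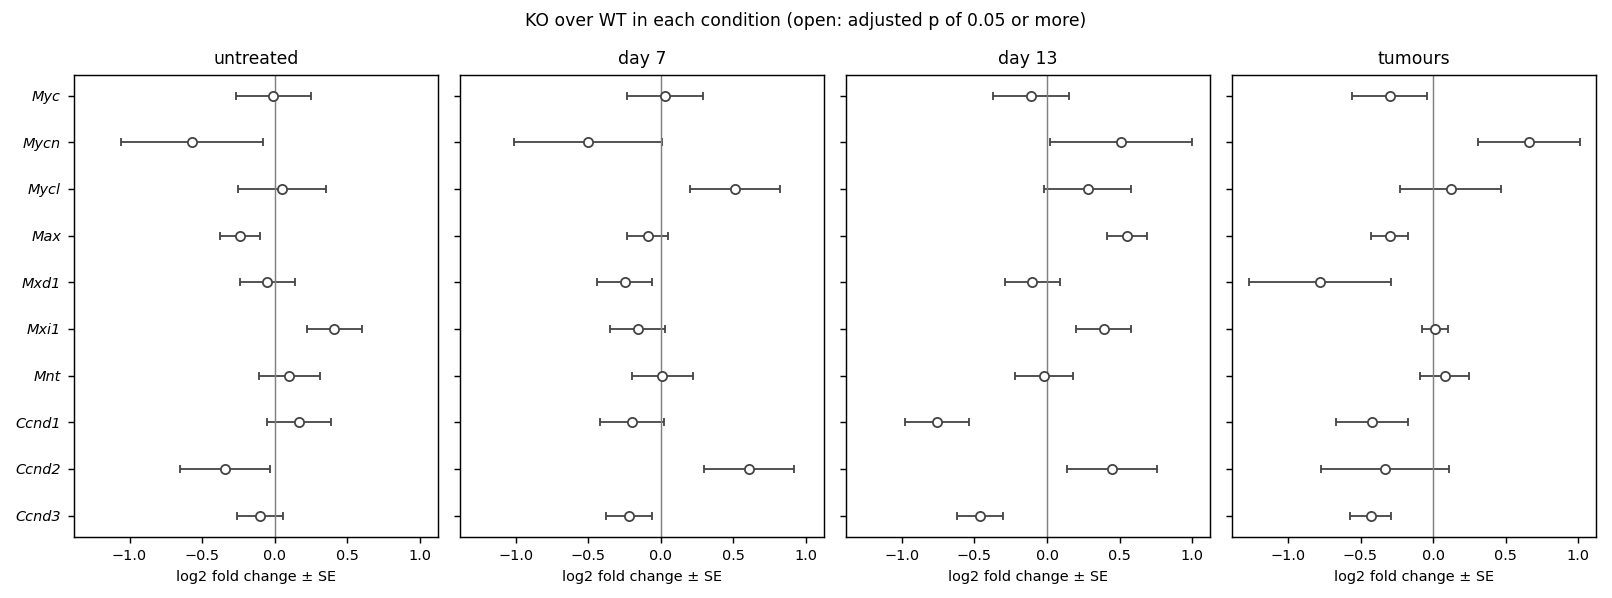
Log2 fold change of KO over WT with its SE (horizontal axis) of each gene (rows) in untreated colon, at day 7, at day 13 and in tumours. All points are open, since 0 of 10 genes had an adjusted p under 0.05, and Max and Ccnd1 lie farthest from 0 relative to their SE at day 13.

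Genes with the pattern nearest to a member's were ranked by the root-mean-square difference of their centred log2 CPM over the 8 group means, among 11394 genes with a mean of at least 5 CPM (Mycn was below it). For Myc they were Dctd (0.197), Rrp1b (0.205) and Slc39a10 (0.207), where the pattern of Myc itself had a root-mean-square size of 0.794. For Ccnd1 they were Gadd45g (0.159), Shf (0.163) and Limk1 (0.167), for a size of 0.849. For Max they were Bfar (0.0683), Mcl1 (0.104) and Tax1bp1 (0.111), for a size of 0.592. For Mxd1 they were Plcl2 (0.121), Lypd8 (0.127) and Slc44a4 (0.143), for a size of 0.842. For Mycl they were Hes6, Rtkn and Tspan12 (0.197 to 0.215), for Mxi1 Ablim1, Gpbp1l1 and Nbr1 (0.104 to 0.117), and for Mnt Togaram1, Zfp319 and Lrrc58 (0.0568 to 0.0639). Among the cyclins they were for Ccnd2 Cks2, Mpp3 and Eif2s3x (0.169 to 0.201) and for Ccnd3 Rin1, Eif6 and Tiparp (0.0843 to 0.103). The ranking is a description over 8 groups.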

How the data were processed

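RNA came from colon and colorectal tumours by Trizol extraction, and library preparation followed standard Illumina methods, per the labels' protocols. STAR 2.7.6a, RSEM 1.3.1 and the build GRCm38 are named, per the submitters' processing notes. Strand setting and annotation release: not given in the sources used here. Each deposited table holds expected counts and TPM from RSEM for 1 library, per the file headers, and 11.0% to 12.4% of the expected counts were not whole. The deposited TPM is scaled per library by effective gene length and served only to compare levels between genes and for ratios.

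Expected counts were rounded and tested with edgeR 4.0.16 (R 4.3.3), TMM, the default filter (minimum count 10, minimum total 15) and robust quasi-likelihood F tests. An adjusted p under 0.05 was called. The fits were 1 over the 18 colon libraries (18102 genes), 1 over the 6 tumours (17245 genes) and, for tumours against colon, 1 over all 24 libraries (19056 genes). The SE is the fold change divided by the square root of F. The script was tested on simulated counts. Symbols were found for 55141 gene identifiers, and positions are from a GENCODE annotation of GRCm38.

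Groups came from the labels, and replicates carry only an accession order. Replicates are biological per the design text, and within groups all libraries differed beyond sampling noise. Named genes were all members, Axin1, up to 4 genes with the smallest p among those called in each pathway list, and the 3 genes nearest in pattern to each member (pseudocount 0.5 CPM). Ldha, Cdk4 at day 7 and the promoters shown were chosen after their values were seen. The members, lists and tests were chosen with earlier results of these data known. Alternatives were DESeq2 1.42.0, RLE size factors, no filter, more or fewer libraries per fit, Y-linked expression as a covariate, each library left out, CPM in place of TPM for ratios, and, chosen after seeing the data, 5 libraries left out together.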

Additional observations from a re-analysis of the deposited data

Results flagged for a closer look

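Max differed between the genotypes in opposite directions in 2 conditions, with no overlap of libraries in either. At day 13 it was higher in KO (341.2, 320.4 and 310.9 CPM) than in WT colon (220.9, 224.8 and 204.8 CPM), a log2 fold change of 0.55 ± 0.14, and in tumours it was lower in KO (74.3, 94.8 and 91.7 CPM) than in WT (115.8, 98.6 and 103.9 CPM), a log2 fold change of -0.30 ± 0.13. Neither passed edgeR's quasi-likelihood test (adjusted p of 0.0558 and 0.942), and the difference between the 2 conditions was not tested. Of all genes tested, 24.2% had no overlap of libraries at day 13 and 9.43% in tumours.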

How the results depend on the processing

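Of 180 pairs of member and comparison, 42 were called, and 26 of these kept the call under every alternative run. No called pair changed sign, 13 lost the call without at least 1 library, 13 lost it under another alternative, and of the pairs not called 17 were called and 45 changed sign under some alternative. No filter on low counts lost 3 calls, the Y-linked covariate 6 and only the groups compared in the fit 5. RLE size factors changed no call, and DESeq2 lost 0 and gained 5. Against the counts in the report, DESeq2 called 2 members in KO over WT at day 13 (0 with edgeR) and 1 each in day 13 over untreated KO, day 13 over untreated WT and day 13 over day 7 WT (0 each). All 24 libraries in the fit gave 1 in KO over WT at day 13. The Y-linked covariate gave 2 in day 7 over untreated in KO and 2 in WT (5 each), and only the groups compared in the fit gave 3 in tumour over day 7 in WT (7). Leaving out 1 library at a time gave 0 to 2 in KO over WT at day 13, 0 to 1 in KO over WT averaged over colon, 2 to 5 in day 7 over untreated KO, 2 to 5 in day 7 over untreated WT and 0 to 1 in day 13 over untreated WT. The cause of these shifts was not tested. The shares of all genes called under these alternatives are not given here, so the shifts in counts are not a result about the members. Leaving out the 5 libraries that stood apart lost 2 calls and gained 6, and turned 2 values that were not called: the genotype difference of Mycl in day 7 over untreated and the Ccnd2 difference of KO tumours from untreated KO colon, both -0.06 there. With CPM in place of TPM 28 of 32 ratio and share values moved by more than the spread between replicates. CPM is not scaled for gene length, so this count does not show whether the order of the groups held. In CPM the lowest tumour ratio of Myc to the 3 repressors was 0.151 and the highest colon ratio 0.119. The Ccnd1 shares of tumours and colon overlapped in CPM. No paired analysis was possible because the labels carry no replicate numbers. Mycn, at 0.772 to 14.8 CPM, had the largest standard errors of the members in the colon comparisons, and the part of depth in this was not tested.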
